A study of Mus musculus with 4 samples.

Results

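The genes described here encode the subunits of the hypoxia-inducible factors (*Hif1a*, *Epas1*, *Hif3a* and *Arnt*), the asparaginyl hydroxylase *Hif1an*, the ubiquitin ligase subunit *Vhl* and the prolyl hydroxylases *Egln1*, *Egln2* and *Egln3*. Probes were chosen by name alone. Every non-control probe whose gene name in the array files was 1 of these 9 symbols was taken, which gave 19 of 41174 probes, and 9 of the 28095 gene names on the array. Each probe is a DNA oligonucleotide of 60 bases. A probe was tested for a genotype difference when it was well above background, as the scanner software flags it, on both arrays of at least 1 genotype. This held for 14 of the 19 probes, with at least 1 tested probe for each of the 9 genes.

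In cells with enough oxygen, the Egln enzymes hydroxylate prolines of the HIF alpha proteins, and the Vhl protein then recognises the hydroxylated alpha subunit and marks it for degradation. Hif1an hydroxylates an asparagine of the alpha subunit and thereby blocks its contact with coactivators. When oxygen is scarce both steps slow down, and alpha subunits pair with Arnt and activate genes of glycolysis, angiogenesis and erythropoiesis. This control acts mainly on protein, which arrays do not measure. HSCs are known for residing in bone marrow with little oxygen and for depending on HIF for their quiescence, and *Hif1a* has been described elsewhere as a target of the homeodomain factor Meis1.

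The RNA came from LSK cells, the lineage-negative, Sca-1-positive and c-Kit-positive bone marrow fraction that holds HSCs and early progenitors, of mice on a C57BL/6J background. The Meis1-deficient mice carried Meis1fl/fl alleles, with loxP sites around exon 8, and the Mx1-Cre transgene. The control mice carried Meis1fl/fl alleles and no Cre, and the labels name them wild type. Mx1-Cre responds to interferon and is not limited to hematopoietic cells. Poly(I:C) was given at the age of 4 to 8 weeks, in 4 injections of 1.5 ug per g. The sources differ on whether the control mice received it or were sham-treated, so an effect of poly(I:C) or of Cre cannot be told apart from that of *Meis1* loss here. Cells were collected 1 week later as 2 pools of 6 mice per genotype, and 1 array was hybridized per pool.

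All values are log2 of the background-subtracted signal of a probe minus the 75th percentile of its array, so that 0 stands for a signal at that percentile and a difference of 1 is 2-fold. Levels of different probes are not comparable, and each probe is compared only with itself. The first array of each genotype was on slide 1 and the second on slide 2, so each slide gives its own genotype difference. The second Meis1-deficient array stood apart: 49.2% of its spots were well above background against 54.7% to 57.4% on the other 3, and across probes its correlation with them was r = 0.891 to 0.916, where they reached 0.956 to 0.967 with each other. The *Meis1* probes A_52_P670612 and A_52_P26195 differed, Meis1-deficient minus control, by -0.997 (SE 0.44) and -1.70 (SE 0.54), both at an adjusted p of 0.983 by limma. In the fit blocked on slide the second met the criteria (unadjusted p = 0.0098), but it was not well above background on the second Meis1-deficient array and passed the filter on dim probes only through the control arrays, where it was higher. The first, above background throughout, did not meet them. Whether either probe lies in the deleted exon was not analysed here. *Kit* (1.81 to 2.14) and *Ly6a*, which encodes Sca-1 (3.27 to 3.85), were well above background on all 4 arrays. All 12 LSK markers looked at were tested, and 0 of them had an unadjusted p under 0.05 by limma.

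The comparison asked whether the RNA of any of these genes differed between Meis1-deficient and control LSK cells. No member probe met the criteria of the study's methods, which ask for over 2-fold at an unadjusted p under 0.01, among the 14 tested by limma. Of all 22000 tested probes 0.736% met them. No member probe had an unadjusted p under 0.05, against 2.81% of all tested probes, and the smallest was 0.219, at an *Arnt* probe. After Benjamini-Hochberg adjustment over all tested probes, the share with an adjusted p under 0.05 was 0% by limma with genotype only, and the smallest adjusted p of a member was 0.983. With the slide as a block in the fit, 0 member probes met the criteria, against 1.98% of all tested probes, and 0 had an unadjusted p under 0.05, against 6.07%. In that blocked fit 50 of the 22000 probes had an adjusted p under 0.05, none of them a member. The methods' t-test also gave 0 member probes at either threshold, where 0.136% and 2.4% of all tested probes passed.

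No 95% interval of a member difference left out 0. The difference, Meis1-deficient minus control, was within 1 log2 unit at 13 of the 14 tested probes, 5 being below 0 and 9 above. Of all tested probes 43.7% were below 0. The median difference of the member probes was 0.12, and that of all tested probes 0.083. In size regardless of sign, the median was 0.28 for the members and 0.36 for all tested probes. The 95% intervals reached between 1.03 and 3.48 to either side of the estimate, so that each held 0 and a 2-fold change in at least 1 direction. A 2-fold rise lay outside the interval at *Hif1a*, *Arnt* A_52_P577150 and *Egln1*, and a 2-fold fall at *Hif3a* A_52_P371541, *Hif1an* A_52_P49233, *Vhl*, *Egln2* and *Egln3*. With 2 arrays per genotype, the smallest two-sided p that an exact permutation test allows is 0.333.

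**Figure D1:**
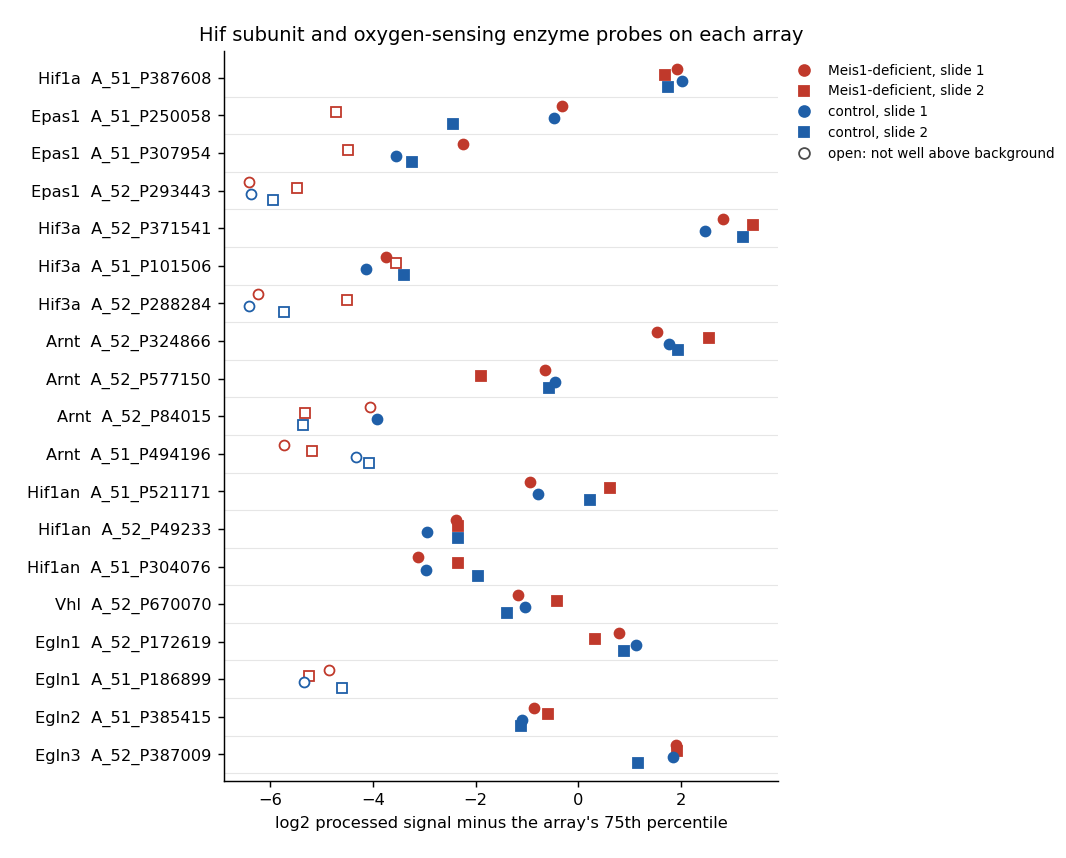
Each of the 19 member probes is a line, and the horizontal axis gives log2 processed signal minus the array's 75th percentile. Red marks are Meis1-deficient and blue marks control arrays, circles are slide 1 and squares slide 2, and open marks are not well above background. Red and blue lie close together at most probes, and the second Meis1-deficient array is far to the left at both tested *Epas1* probes.

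Among the HIF alpha subunits, *Hif1a*, the oxygen-regulated subunit that most cells express, is read by a single probe. Its level was 1.93 and 1.69 on the first and second Meis1-deficient arrays and 2.02 and 1.75 on the first and second control arrays. All 4 arrays were well above background, the genotypes overlapped, and on both slides the Meis1-deficient array was slightly the lower. The difference was -0.087 on slide 1 and -0.058 on slide 2. By limma it was -0.073 (SE 0.43, 95% interval -1.12 to 0.97, n = 2 arrays per genotype, adjusted p = 0.991), which is 0.951-fold with an interval of 0.461 to 1.96-fold. A larger absolute difference was found at 89.2% of all tested probes. The sign depended on the scaling: with each array scaled to its median, the difference was 0.0089, and leaving out 1 array gave -0.21 to 0.063.

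*Epas1* encodes Hif2a, an alpha subunit known for its role in endothelial cells and in erythropoietin production. It has 3 probes, and it was the member whose arrays disagreed most. At A_51_P250058 the level was -0.32 and -4.72 on the first and second Meis1-deficient arrays, the second not well above background, and -0.48 and -2.43 in the control pools. Both slide 2 arrays were low at this probe, the Meis1-deficient one the lower, and on slide 1 the genotypes were close. The signals behind these values were 119, 3.41, 106 and 28.5 units, and the scanner software gave the 3.41 an error of 2.06. The difference was 0.16 on slide 1 and -2.29 on slide 2, and by limma -1.07 (SE 1.43, 95% interval -4.55 to 2.42, adjusted p = 0.983).

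The value of this probe rested on single arrays, and the probe passed the filter on dim probes only through the control arrays. Without the first Meis1-deficient array the difference was -3.27, which sets the controls against a single array that was not well above background. Without the second it was 1.14, in the opposite direction, and after normexp background correction it was 0.075. With an array left out, the remaining array of that genotype is assumed to vary as those of the other genotype do.

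The second *Epas1* probe, A_51_P307954, lies in the same gene and was read from the same RNA. Its level was -2.25 and -4.48 in the Meis1-deficient pools, the second again not well above background, and -3.54 and -3.25 in the control pools. The Meis1-deficient arrays were thus the highest and the lowest of the 4, with the controls between them. The difference was 1.30 on slide 1 and -1.23 on slide 2, and by limma 0.032 (SE 0.76, 95% interval -1.82 to 1.89, adjusted p = 0.997). It was -1.08 without the first Meis1-deficient array and 1.15 without the second. This probe, too, passed the filter on dim probes only through the control arrays, so the -1.08 rests on a value not well above background. The third probe, A_52_P293443, was not well above background on any array and was not tested.

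The stretches of 30 bases from the 5′ end of these probes are shown because the *Hif1a* probe and the *Epas1* probes behaved differently across slides. Positions are on mm9, as the array's annotation gives them, and the exon in which a probe lies was not analysed here.
Hif1a A_51_P387608 (chr12:75047269-75047329, plus strand): ttttttggcctatggaattgttaagcctgg
Epas1 A_51_P250058 (chr17:87232615-87232674, plus strand): tcctgtccatgtaacaacttcatgaccatt
Epas1 A_51_P307954 (chr17:87230808-87230867, plus strand): ccctaggaaagctttggcgtcattcaactc

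Since *Epas1* is typical of endothelium, markers of that cell type were set beside it. Of 9 endothelial markers 8 were tested, 5 with a difference below 0 and 3 above, and 0 had an unadjusted p under 0.05 by limma. Their median difference was 0.31 on slide 1 and -0.97 on slide 2, so the list, like A_51_P250058, was above 0 on slide 1 and below 0 on slide 2. That probe and some of the markers, such as *Kdr*, passed the filter on dim probes through 1 genotype only. A fall on slide 2 may be partly set by that filter. Single markers differed among themselves, and 4 are named after their values were seen. *Kdr*, which encodes a VEGF receptor and was well above background on 3 arrays, differed by 0.47 on slide 1 and -2.74 on slide 2, and *Tek*, the angiopoietin receptor gene, by 0.47 and -1.59. In contrast, *Pecam1*, which encodes an adhesion molecule of endothelium and blood cells, was above 0 on both slides (0.87 and 1.00), and *Esam*, which encodes another adhesion molecule, differed by -0.089 and 0.68. The summed level of the tested markers, as multiples of each array's 75th percentile, was 14.8 and 10.3 in the Meis1-deficient pools and 11.6 and 11.3 in the control pools. This sum, however, adds probes whose levels are not comparable. *Cdh5*, the cadherin that defines endothelium, was not well above background at either of its 2 probes on any array. Several of these genes are also expressed in HSCs. The part of endothelial RNA in the *Epas1* values was not tested, and fewer cells of a type and less RNA per cell cannot be told apart in these samples.

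*Hif3a* encodes an alpha subunit with splice forms that can oppose the others, and it has 3 probes. At A_52_P371541 (chr7:17616343-17616402) the level was 2.81 and 3.40 in the Meis1-deficient pools and 2.46 and 3.21 in the control pools. Both slide 2 arrays were above both slide 1 arrays, and within each slide the Meis1-deficient array was the higher. The difference was 0.35 on slide 1 and 0.19 on slide 2, and by limma 0.27 (SE 0.50, 95% interval -0.94 to 1.48, adjusted p = 0.983). Its sign turned when the second Meis1-deficient array (-0.027) or the first control array (-0.11) was left out. At the dim probe A_51_P101506, which was well above background on 3 arrays, the difference was 0.39 on slide 1 and -0.15 on slide 2, and by limma 0.12 (SE 0.47, 95% interval -1.03 to 1.26). A_52_P288284 was not well above background on any array.

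*Arnt* encodes HIF-1 beta, the constant partner with which the alpha subunits bind DNA and which the aryl hydrocarbon receptor shares. It has 4 probes, of which the tested ones differed in opposite directions. At A_52_P324866 the level was 1.54 and 2.54 in the Meis1-deficient pools and 1.77 and 1.94 in the control pools. The Meis1-deficient arrays lay on either side of the controls, with a difference of -0.23 on slide 1 and 0.60 on slide 2. By limma it was 0.18 (SE 0.51, 95% interval -1.05 to 1.41, adjusted p = 0.985), and without the second Meis1-deficient array it was -0.32.

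At A_52_P577150 the level of *Arnt* was -0.64 and -1.90 in the Meis1-deficient pools and -0.46 and -0.57 in the control pools. Here both Meis1-deficient arrays were below both controls, as at 10.9% of all tested probes, the second far more so than the first. The difference was -0.18 on slide 1 and -1.32 on slide 2, and by limma -0.75 (SE 0.55, 95% interval -2.09 to 0.58, adjusted p = 0.983). It was below 0 under every alternative run, from -1.38 without the first Meis1-deficient array, where the unadjusted p was 0.015 by limma and 26.3% of all tested probes had one under 0.05, to -0.13 without the second. The other 2 probes were not tested: A_51_P494196 was not well above background on any array, and A_52_P84015 was so on the first control array only.

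The tested *Arnt* probes are shown because they gave opposite signs. The annotation places the 60 bases of A_52_P577150 over a span of 427 genomic bases, so that it crosses a gap, while A_52_P324866 lies in an unbroken stretch.
Arnt A_52_P324866 (chr3:95300932-95300991, plus strand): aataaccgacttgtttttaactgtgatctg
Arnt A_52_P577150 (chr3:95294565-95294991, plus strand): cagagaatttcaggaatagtggtcttaccc

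*Hif1an* encodes FIH, the enzyme that keeps the alpha subunit from its coactivators, and all 3 of its probes (chr19) were well above background on all 4 arrays. At the probe with the highest signal, A_51_P521171, the level was -0.95 and 0.62 in the Meis1-deficient pools and -0.78 and 0.22 in the control pools. The slides differed more than the genotypes did, both slide 2 arrays being above both slide 1 arrays. The difference was -0.17 on slide 1 and 0.40 on slide 2, and by limma 0.11 (SE 0.67, 95% interval -1.52 to 1.75, adjusted p = 0.991). With the slide as a block, its standard error was 0.48. The other probes gave 0.28 (SE 0.45, A_52_P49233) and -0.26 (SE 0.55, A_51_P304076) by limma, so the 3 probes did not share a direction. All 3 changed sign when 1 array was left out, and A_51_P304076 also after normexp background correction (0.11).

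*Vhl* encodes the subunit that recognises hydroxylated alpha proteins, and it has a single probe, A_52_P670070 (chr6:113581224-113581283). Its level was -1.17 and -0.41 in the Meis1-deficient pools and -1.03 and -1.39 in the control pools. The second Meis1-deficient array was the highest, and the first lay between the controls. The difference was -0.14 on slide 1 and 0.98 on slide 2, and by limma 0.42 (SE 0.48, 95% interval -0.75 to 1.59, adjusted p = 0.983). Without the second Meis1-deficient array it was 0.041, and without the first it was 0.80.

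At the tested probe of each prolyl hydroxylase gene the genotypes did not overlap, a pattern that among all tested probes was found with the Meis1-deficient arrays lower at 10.9% and higher at 16%. *Egln1* encodes PHD2, the main oxygen sensor for Hif1a, and its level at A_52_P172619 was 0.78 and 0.33 in the Meis1-deficient pools and 1.11 and 0.89 in the control pools. Both Meis1-deficient arrays were below both controls. The difference was -0.33 on slide 1 and -0.56 on slide 2, and by limma -0.44 (SE 0.44, 95% interval -1.52 to 0.63, adjusted p = 0.983), or 0.735-fold. Under the alternatives run it stayed between -0.67 and -0.22. The other *Egln1* probe, A_51_P186899, was not well above background on any array.

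*Egln2* encodes PHD1, which is known as an estrogen-induced member of the family. Its level at A_51_P385415 was -0.87 and -0.59 in the Meis1-deficient pools and -1.10 and -1.12 in the control pools. Both Meis1-deficient arrays were above both controls, which were nearly equal. The difference was 0.23 on slide 1 and 0.53 on slide 2, and by limma 0.38 (SE 0.42, 95% interval -0.65 to 1.41, adjusted p = 0.983), or 1.30-fold. The alternatives gave 0.24 to 0.52. The methods' t-test gave this probe an unadjusted p of 0.108, the smallest of the members by that test.

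*Egln3* encodes PHD3, whose gene is itself strongly induced by HIF. Its level at A_52_P387009 was 1.90 and 1.91 in the Meis1-deficient pools and 1.84 and 1.17 in the control pools. Only the second control array stood apart, and both Meis1-deficient arrays were above both controls. The difference was 0.058 on slide 1 and 0.75 on slide 2, and by limma 0.40 (SE 0.46, 95% interval -0.71 to 1.52, adjusted p = 0.983), or 1.32-fold. Without the second control array it fell to 0.064.

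Genotypes that do not overlap are frequent with 2 arrays each. Of the 14 member probes 2 had both Meis1-deficient arrays below both controls, *Egln1* and the *Arnt* probe A_52_P577150, and 2 had both above, *Egln2* and *Egln3*. These shares are near those of all tested probes, given above. The *Egln* stretches are shown because the probes of these paralogs gave differences of both signs. Their annotated positions are all on the minus strand.
Egln1 A_52_P172619 (chr8:127433241-127433300): acccgtcttagcacctgtgtagtttgtatc
Egln2 A_51_P385415 (chr7:27944166-27944225): ggacagaaaggtgttcaagtaccagtatca
Egln3 A_52_P387009 (chr12:55280953-55281012): atcccagcatttattatgcactatgtttac

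**Figure D2:**
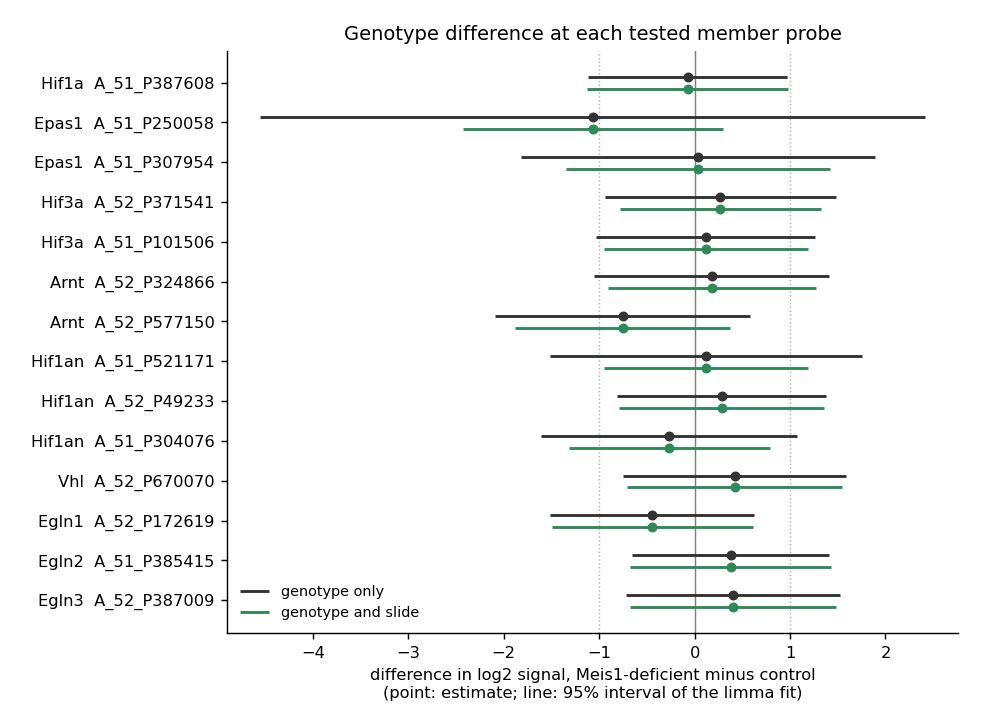
For each of the 14 tested member probes, the horizontal axis gives the difference in log2 signal, Meis1-deficient minus control, with its 95% interval, from the fit with genotype only (black) and with genotype and slide (green). All 28 intervals include 0, and that of *Epas1* A_51_P250058 is the widest, from -4.55 to 2.42 with genotype only.

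Agreement between slides was no closer for the members than for other probes. The difference was below 0 on both slides at 4 member probes, above 0 on both at 3, and of opposite sign at 7 of 14, against 48.8% of all tested probes. The first group was *Hif1a*, *Arnt* A_52_P577150, *Hif1an* A_51_P304076 and *Egln1*. The second was *Hif3a* A_52_P371541, *Egln2* and *Egln3*. The median of the members was -0.015 on slide 1 and -0.031 on slide 2.

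**Figure D3:**
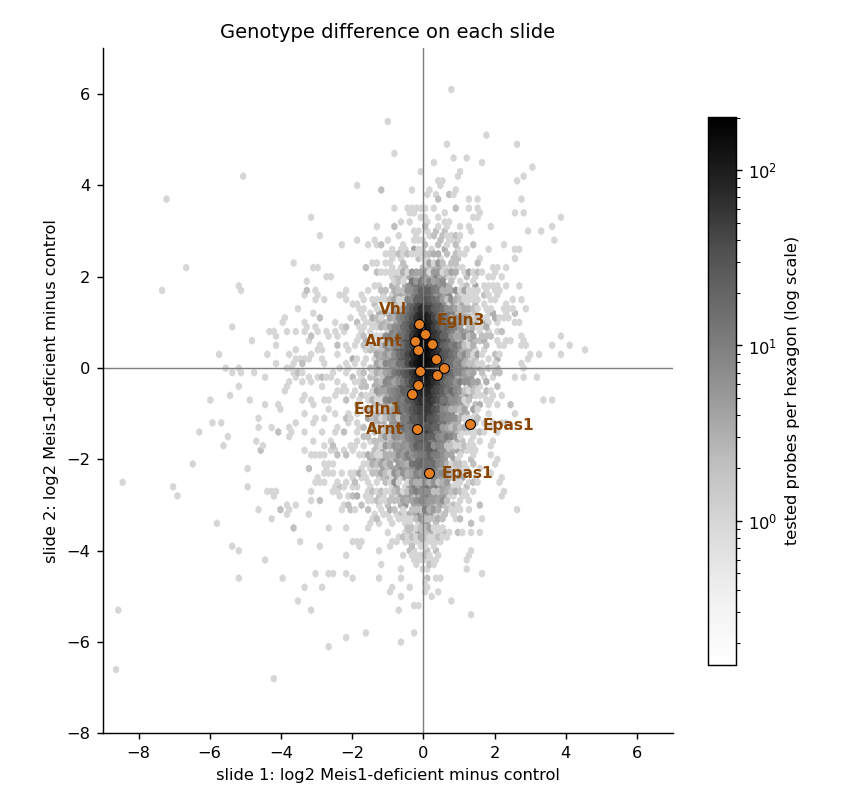
The difference in log2 signal, Meis1-deficient minus control, on slide 2 (vertical axis) is plotted against that on slide 1 (horizontal axis). Grey hexagons count the tested probes on a log scale and orange points are the 14 member probes, with the genes named where they lie away from the centre. Most probes spread further from 0 along slide 2 than along slide 1, and both *Epas1* points lie below 0 on slide 2 and above 0 on slide 1.

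Under the 14 alternatives run, from scaling and filters to leaving out 1 array, 5 of the 14 member probes never changed sign. They were the *Arnt* probe A_52_P577150 and the *Egln1* probe, below 0, and the *Vhl*, *Egln2* and *Egln3* probes, above 0. At the other 9 probes the sign turned at least once, most often with an array left out.

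**Figure D4:**
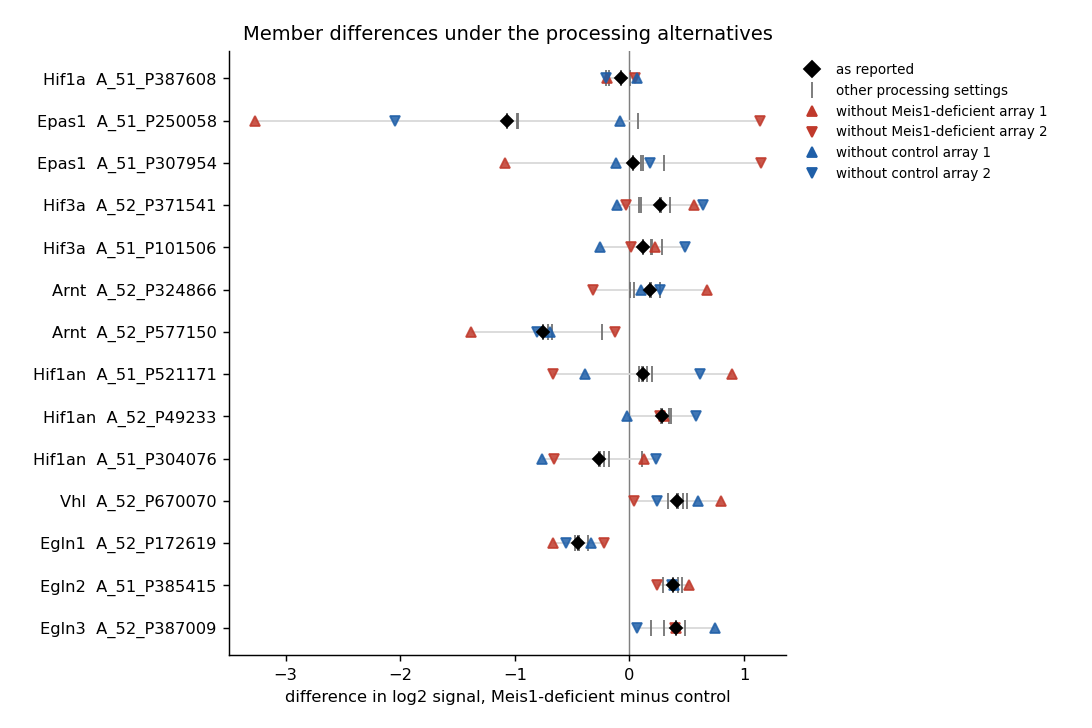
For each tested member probe, the horizontal axis gives the difference in log2 signal, Meis1-deficient minus control, as reported (black diamond), under other processing settings (grey ticks) and with 1 array left out (triangles, red for Meis1-deficient and blue for control arrays). *Egln1* stays between -0.67 and -0.22 and *Egln2* between 0.24 and 0.52, while *Epas1* A_51_P250058 runs from -3.27 to 1.14.

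The partners of these genes were looked at through lists taken from general knowledge, with each gene read at its brightest tested probe. Over the 5 lists 68 genes were tested, with genes of several lists counted once and the members *Egln1* and *Egln3* left out, of which 2 had an unadjusted p under 0.05 by limma, or 2.94%, close to the 2.81% of all tested probes. None met the criteria in the fit with genotype only. Both were lower in Meis1-deficient cells. With the slide as a block the count was 6 of 68, when 6.07% of all tested probes passed that threshold, and 2 genes, *Per1* and *Vegfa*, met the criteria, against 1.98%. Without the first Meis1-deficient array the count was 24, when 26.3% of all tested probes passed.

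The list around the Vhl ubiquitin ligase held its subunits and also related enzymes, such as the deubiquitinases *Usp20* and *Usp33*. Of its genes 9 were tested, 1 with a difference below 0 and 8 above, where 43.7% of all tested probes were below 0. Among these genes 0 had an unadjusted p under 0.05 by limma. Their median was 0.42, with 0.075 on slide 1 and 0.90 on slide 2, the slide 2 value being the higher. *Rbx1*, the RING subunit, had levels of 5.54 and 7.09 in the Meis1-deficient pools and 5.33 and 5.79 in the control pools, a difference of 0.76 (SE 0.62, adjusted p = 0.983 by limma). *Usp33*, a deubiquitinase bound by Vhl, differed by 0.61 (SE 0.49).

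Of 18 tested coactivators and modulators of HIF alpha, 9 were below 0 and 9 above, with a median of -0.031, and 0 had an unadjusted p under 0.05 by limma. *Os9*, a lectin-like protein of the endoplasmic reticulum, had levels of 1.24 and -0.65 in the Meis1-deficient pools and 1.58 and 1.14 in the control pools, a difference of -1.07 (SE 0.69). *Hdac7*, a class IIa histone deacetylase, differed by -0.96 (SE 0.74). The largest differences of the list, named after their values were seen, were at the histone acetyltransferase genes *Crebbp*, at -2.40 (SE 1.79), and *Ep300*, at -1.71 (SE 0.84). On slide 1 they differed by 0.10 and -0.31, and on slide 2 by -4.90 and -3.10. With the slide as a block their unadjusted p was 0.027 and 0.025 by limma. *Ep300* was well above background on 3 arrays and passed the filter on dim probes through 1 genotype only, so its p is partly set by that filter. At all 4 of these genes the second Meis1-deficient array was the lowest.

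The bHLH-PAS relatives of the HIF subunits are circadian and xenobiotic factors and coactivators that share their DNA-binding or PAS fold. Of 18 genes 7 were tested, and all 7 of those had a difference below 0, against 43.7% of all tested probes. Their median was -0.54 (-0.51 on slide 1 and -0.85 on slide 2), although *Arntl* and *Clock* were above 0 on slide 2. *Per3*, a repressor of the circadian clock, had levels of -2.72 and -3.53 in the Meis1-deficient pools and -1.67 and -1.83 in the control pools, a difference of -1.38 (SE 0.48, unadjusted p = 0.027, adjusted p = 0.983 by limma). It was well above background on 3 arrays and so passed the filter on dim probes through 1 genotype only. Its relatives *Per1*, at -2.24 (SE 1.24), and *Per2*, at -0.96 (SE 0.56), were below 0 on both slides, with unadjusted p of 0.118 and 0.135 by limma. The second Meis1-deficient array was the lowest at both. The difference of *Per1* was -0.71 on slide 1 and -3.78 on slide 2, and with the slide as a block it met the criteria (unadjusted p = 0.0081, adjusted p = 0.464 by limma). *Arntl*, the clock's counterpart of Arnt, differed by -0.14 (SE 0.46). *Arnt2* and *Ahr* were not tested.

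Of 15 tested oxygenases that depend on oxygen in a like manner, 11 were below 0 and 4 above, where 43.7% of all tested probes were below 0. Their median was -0.72 (-0.0017 on slide 1 and -0.76 on slide 2). *Plod1*, a collagen lysyl hydroxylase, had levels of -3.78 and -4.16 in the Meis1-deficient pools and -2.95 and -1.71 in the control pools, a difference of -1.64 (SE 0.56, unadjusted p = 0.025, adjusted p = 0.983 by limma). It, too, was well above background on 3 arrays and passed the filter on dim probes through 1 genotype only. *Tet2*, the 5-methylcytosine oxidase, had levels of 2.80 and -0.29 in the Meis1-deficient pools and 2.80 and 1.95 in the control pools. *Kdm5c*, a histone H3 lysine demethylase, had levels of 1.85 and -0.037 in the Meis1-deficient pools and 1.90 and 2.15 in the control pools. For *Tet2* and *Kdm5c* the first Meis1-deficient array was level with the control of its slide, and only the second was low, with differences of -1.13 (SE 1.00) and -1.12 (SE 0.68).

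Transcripts known to be induced through HIF are the readout of the pathway. The list holds the members *Egln1* (-0.44) and *Egln3* (0.40), which are counted here. Of 28 genes, 24 were tested, 9 with a difference below 0 and 15 above, with a median of 0.12 (-0.19 on slide 1 and 0.62 on slide 2), and 0 had an unadjusted p under 0.05 by limma. *Vegfa*, the angiogenic growth factor, had levels of 2.89 and 0.39 in the Meis1-deficient pools and 4.02 and 2.39 in the control pools. It was lower within each slide, by -1.13 and -2.00, with a difference of -1.57 (SE 0.94, adjusted p = 0.983 by limma) and with the slide as a block it met the criteria (unadjusted p = 0.00978, adjusted p = 0.499 by limma). The difference of *Ankrd37*, an ankyrin repeat gene, was 0.77 (SE 0.50, adjusted p = 0.983 by limma). The 5 enzymes of the list that carry out or regulate glycolysis did not share a sign, *Pgk1* at 0.40 (SE 0.44), *Ldha* at 0.50 (SE 0.60), *Pfkfb3* at 0.26 (SE 0.46), *Hk2* at -0.14 (SE 0.46) and *Pfkfb4* at -0.13 (SE 0.54). *Kdm3a*, a histone demethylase, was at -1.27 (SE 0.72), with 0.037 on slide 1 and -2.58 on slide 2. These were named after their values were seen.

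**Figure D5:**
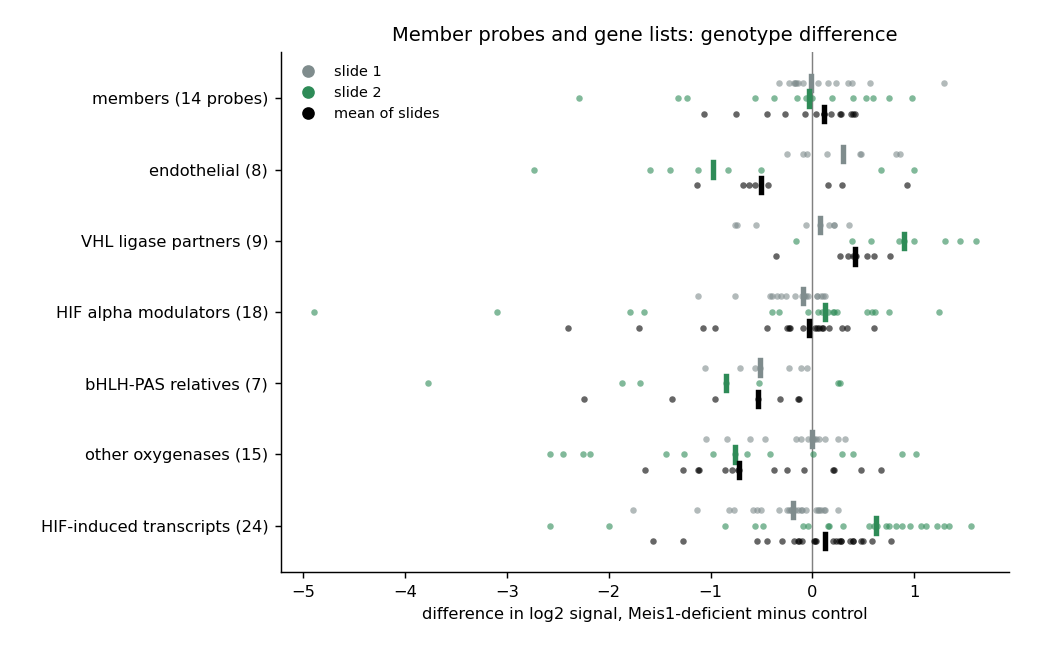
Points are the differences in log2 signal, Meis1-deficient minus control, of the 14 member probes and of the tested genes of 5 pathway lists and the endothelial markers, for slide 1 (grey), slide 2 (green) and their mean (black), with thick bars at the medians. Values on slide 2 spread further from 0 in each list, and the medians of the endothelial, bHLH-PAS and oxygenase lists lie below 0 on slide 2, at -0.97, -0.85 and -0.76.

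The promoters of the members were searched for the core that HIF dimers bind, ACGTG or GCGTG, and for the Meis motif TGACAG, on both strands, in windows from 250 bases before to 50 after the start of the gene (RefSeq, GRCm38.p6). The table held 9 windows of 8 members, *Egln2* having 2, and none of *Epas1*. A HIF core was found in 7 of the 9 windows, those of *Hif1a*, *Hif3a*, *Arnt*, *Egln1*, *Egln2* (both) and *Egln3*, and in 43.8% of all 32851 windows of this length. The Meis motif was found in both *Egln2* windows and in no other member's window, against 19.2% of all windows. These are matches of letters and not known sites. Introns and more distant regions were not searched, and the conserved Meis1 site described elsewhere for *Hif1a* lies in its first intron. Stretches of 30 bases are shown, with the matched letters in capitals, around each ACGTG match of *Hif1a* and the *Egln* genes, which were chosen as the best known alpha subunit and the enzymes that sense oxygen. The GCGTG matches that stand alone in *Egln1* and *Egln2*, and the Meis match of the second *Egln2* window, are not shown. In *Egln2* the Meis motif, here as its reverse complement, adjoins a HIF core 54 bases before the start and overlaps one 8 bases before it.
Hif1a (chr12:73907720-73907749, plus strand): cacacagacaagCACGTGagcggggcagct
Hif1a (chr12:73907785-73907814, plus strand): tggctgagagcaACGTGggctggggtgggg
Egln1 (chr8:124949305-124949334, minus strand): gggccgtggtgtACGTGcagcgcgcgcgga
Egln2 (chr7:27166836-27166865, minus strand): ctaagcctcCTGTCAACGTGcggttcgcgc
Egln2 (chr7:27166791-27166820, minus strand): ggccgggccgCTGTCACGTGcccagcgggc
Egln3 (chr12:54204086-54204115, minus strand): tgtgcatctcagACGTGagatccaggtttt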

How the data were processed

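RNA of LSK cells was profiled on 4 one-color arrays, 2 pools per genotype, grouped by the sample labels. The authors deposited spot intensities from Feature Extraction 9.5.3.1 (per the file headers, while the submitters' processing notes name another version). Their processed signal has the background subtracted and trends within the array removed. The authors' table of the series holds these intensities rounded, without scaling between arrays.

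Spots of controls and outliers were dropped, the rest averaged per probe, and log2 intensities centered on the 75th percentile of each array. Genotypes were compared with limma 3.58.1 (R 4.3.3), without other terms, on 22000 probes that both arrays of at least 1 genotype showed well above background and that had values on all 4, with Benjamini-Hochberg adjustment over them. Intervals are 95% intervals of that fit. The p-values of that fit rest on the spread between arrays of 1 genotype, in which pool and slide are mixed. Limma draws the spread of each probe towards a value shared over all tested probes (SD 0.508). Precision is limited by the number of arrays and by dim signals. The fit was tested on simulated data. Replicate numbers pair the arrays, since in the files the same number means the same slide, and same-numbered arrays deviated together (r = 0.266 across probes). Blocked fits changed no member call.

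The members and lists were chosen with earlier results of these data known. All members are named at every probe. From each pathway list, genes with an unadjusted p under 0.05 and the 2 largest differences of 1 sign on both slides, among probes well above background on all 4 arrays, are named. *Meis1*, *Kit* and *Ly6a* are named as checks. Lists of B lineage and plasma cell, T lineage, erythroid, and granulocyte and monocyte markers were also run. Symbols are those of the array, and 15 of the 19 member probes carried a RefSeq accession that matched the same symbol. Positions are on mm9, and promoter windows on GRCm38.p6. Alternatives covered the scaling (median, quantile), normexp with an offset of 50, the authors' table, dim probes unfiltered or filtered on all 4 arrays, inclusion of outlier spots, a slide block, an intensity trend, the methods' t-test, and each array left out.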

Additional observations from a re-analysis of the deposited data

How the results depend on the processing

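No setting that kept all 4 arrays brought a member probe past the criteria. The limits are 2 arrays per genotype, a second Meis1-deficient array that stood apart, and tested *Epas1* probes that were not well above background on that array. Values are log2 differences, Meis1-deficient minus control. Leaving out 1 array gave 0 to 1 member probes past the criteria and 0 to 3 with an unadjusted p under 0.05, both highest without the first Meis1-deficient array, where 10.1% and 26.3% of all tested probes passed. The median of the members was 0.12 as reported, 0.20 with median scaling, 0.090 with quantile scaling, 0.13 with normexp correction, 0.18 with the filter on all 4 arrays, and -0.097 to 0.26 with an array left out. Median scaling moved the median of all tested probes from 0.083 to 0.16. The probes of the whole array past the criteria numbered 162, and 49 with normexp correction, 294 with no filter, 52 with the filter on all 4 arrays, 436 with the slide as a block, 30 by the methods' t-test, 101 with an intensity trend, and 107 to 2216 with an array left out. Pathway genes with an unadjusted p under 0.05 numbered 2, and 0 with normexp correction, the filter on all 4 arrays or an intensity trend, 4 with no filter, 6 with the slide as a block, and 0 to 24 with an array left out.

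Of 193 values of single member probes under the alternatives, 17 changed sign, and 5 of the 14 probes never did. With median scaling *Hif1a* was 0.0089. With normexp correction *Epas1* A_51_P250058 was 0.075 and *Hif1an* A_51_P304076 was 0.11. The other reversals came from leaving out an array, with ranges of -0.21 to 0.063 for *Hif1a*, -3.27 to 1.14 and -1.08 to 1.15 for *Epas1* (A_51_P250058 and A_51_P307954), -0.11 to 0.65 and -0.25 to 0.49 for *Hif3a* (A_52_P371541 and A_51_P101506), -0.32 to 0.68 for *Arnt* A_52_P324866, and -0.67 to 0.90, -0.019 to 0.58 and -0.76 to 0.24 for *Hif1an* (A_51_P521171, A_52_P49233 and A_51_P304076). The cause of these changes was not tested. The paired fit, with the slide as a block, changed no member call.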

Other observations

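Markers of other cell types were read by limma at the brightest tested probe of each gene. Of 8 tested B lineage and plasma cell markers all 8 had a difference below 0, against 43.7% of all tested probes. Their median was -0.77 (-1.93 on slide 1 and 0.30 on slide 2). Among them 1 had an unadjusted p under 0.05, *Irf4*, a factor of plasma cell differentiation, at -2.36 (SE 0.79). In the fit blocked on slide *Irf4* met the criteria (unadjusted p = 0.0031). However, it was well above background on 3 arrays and passed the filter on dim probes through 1 genotype only. Of 8 tested erythroid markers 5 were below 0 and 3 above, with a median of -0.18, while their summed level, as multiples of each array's 75th percentile, was 102 and 248 in the Meis1-deficient pools and 90.5 and 27.9 in the control pools. That sum adds probes whose levels are not comparable, and most of it on each array came from *Hbb-b1*, a beta globin gene, at log2 levels of 6.55 and 7.93 against 6.30 and 4.46. *Hbb-b1* had the largest difference, 1.86 (SE 0.78), with 0.24 on slide 1 and 3.47 on slide 2, and shares sequence with its paralogs. *Rhag*, a red cell membrane protein, was at 1.72 (SE 0.47), the 1 erythroid marker that met the criteria, and *Ermap*, an erythroid adhesion protein, at -1.11 (SE 0.43) had an unadjusted p of 0.039. Of 10 tested granulocyte and monocyte markers 6 were below 0 and 4 above, with a median of -0.20, and *Elane*, neutrophil elastase, met the criteria at -1.57 (SE 0.42). Of 3 tested T lineage markers *Cd8a* and *Lck* were below 0 and *Cd5* above, with a median of -0.55. *Cd8a* (-1.34, SE 0.43) and *Cd5* had unadjusted p of 0.020 and 0.012 by limma, in opposite directions, and *Cd5* met the criteria in the blocked fit (unadjusted p = 0.0050). *Cd5* was not well above background in either control pool, so it was tested only through the Meis1-deficient pools, where it is higher, and its p is partly set by the filter on dim probes. *Cd8a*, on 3 arrays, also passed that filter through 1 genotype only. These genes were named after their values were seen, and the smallest adjusted p of the whole comparison by limma was 0.467 with genotype only, while 50 probes had one under 0.05 in the blocked fit. The methods name B220, CD3, TER119, Gr-1 and CD11b as the lineage markers of the sort, which removes cells that carry them. The part of any such cells in the member values was not tested.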
